A study of Mus musculus with 4 samples.

Results

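Meiotic telomere attachment is the step in which chromosome ends are fastened to the nuclear envelope, and 10 genes of that machinery are described here out of the 50763 genes in the deposited count table. They were chosen by name: the telomere adaptors Terb1, Terb2 and Majin, the bridge genes Sun1, Sun2 and Kash5, the kinase activator gene Speedya, and the lamin genes Lmna, Lmnb1 and Lmnb2. The table lists 9 of them under these symbols and Speedya under its current symbol Spdya. Polyadenylated RNA was sequenced from testis cells labelled as pachytene spermatocytes of mice, the meiotic prophase cells in which homologous chromosomes are fully paired. There were 2 libraries labelled Hsf5 knockdown and 2 labelled wild type (WT). Hsf5 encodes a testis member of the heat shock transcription factor family. The sources used here do not give the method of the knockdown, the strain, the age or how many animals went into a library. The labels call the replicates biological, and p-values speak only of the spread among these 4 libraries.

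In the course of meiotic prophase each telomere is handed over from shelterin, the protein complex that caps chromosome ends, to a complex of TERB1, TERB2 and MAJIN, and MAJIN sits in the inner nuclear membrane. SUN1 spans that membrane and binds KASH5 in the outer membrane, which recruits dynein, so that motors in the cytoplasm pull on chromosome ends and bring homologues together. Speedy A binds and activates CDK2 at telomeres, and the lamins form the meshwork under the inner membrane. Mice that lack TERB1, TERB2, MAJIN, SUN1, KASH5 or Speedy A are known to be infertile with a block in meiosis.

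The libraries held 33287428 to 42479164 counts. Hsf5 itself stood at 287 and 238 CPM in the knockdown libraries, against 586 and 449 CPM in the WT libraries (CPM, read counts per library size, with sizes adjusted by TMM, a factor that evens out library composition), so it was lower but far from absent. Its log2 fold change was -0.98 (SE 0.31; edgeR, adjusted p = 0.0217). Of all tested genes 43.7% also had both knockdown libraries below both WT libraries, so such a fall is not particular to Hsf5. Counts of markers that rose or fell, here and below, are calls at an adjusted p below 0.05 in edgeR. Over all tested genes 33.5% were lower and 27.4% higher by that test, so counts near these shares are no result about a cell type. Of the 10 markers of the labelled cell type, pachytene spermatocytes, 6 fell, 1 rose and 3 did not pass. The summed level of these markers was 4428 and 3626 CPM in the knockdown libraries, against 10204 and 11081 CPM in WT libraries, and all had counts in every library. Markers of other cells moved between the groups as well. All 10 Sertoli cell markers rose, with sums of 3413 and 4126 CPM in knockdown libraries and 160 and 400.5 CPM in WT libraries, and all 5 Leydig cell markers rose, with sums of 1191 and 2395 CPM in knockdown libraries and 104 and 693 CPM in WT libraries. Of the spermatogonia markers 6 of 8 rose, with sums of 639.6 and 589.7 CPM in knockdown libraries and 49.8 and 65.7 CPM in WT libraries, and all 7 spermatid markers fell, with sums of 19.8 and 11.3 CPM in knockdown libraries and 2910 and 1362 CPM in WT libraries. Of 7 leptotene or zygotene markers 6 rose and 1 fell, with sums of 599.7 and 404 CPM in knockdown libraries and 219 and 155 CPM in WT libraries, and of 5 endothelial markers 2 rose, with sums of 17.8 and 44.2 CPM in knockdown libraries and 10.4 and 17.9 CPM in WT libraries. The spermatid marker Prm2 had no count in either knockdown library. In bulk libraries of this kind, fewer cells of a type and less RNA per cell cannot be told apart, and the part of other cells in the results below was not tested.

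**Figure D1:**
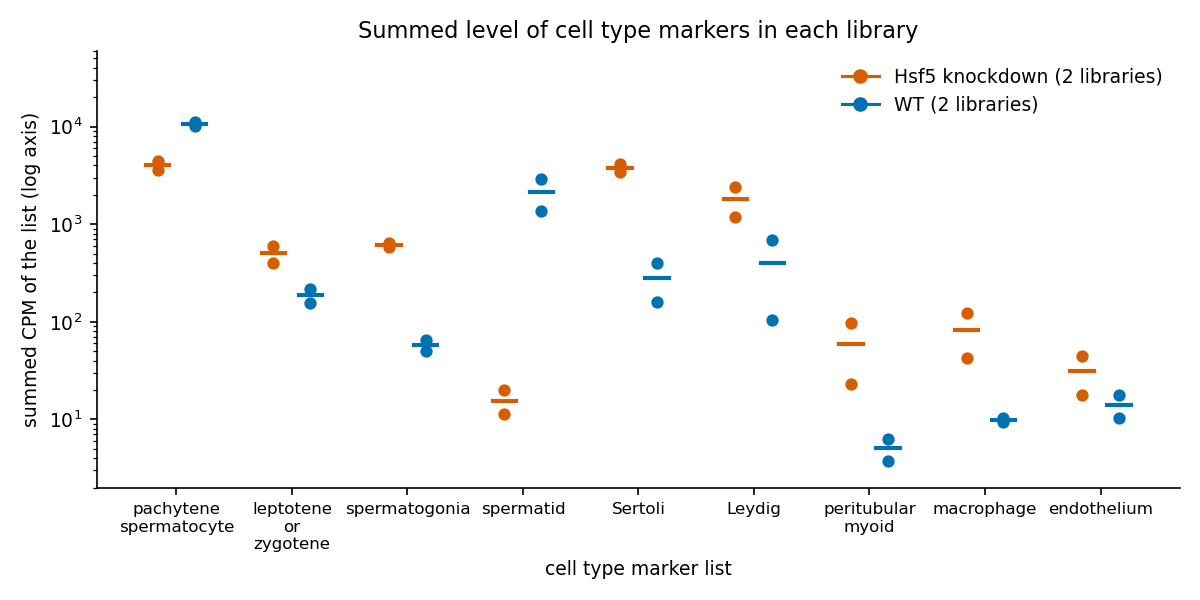
Summed level of each cell type marker list in each library, in CPM on a log axis. Points are libraries, with Hsf5 knockdown in orange and WT in blue, and bars are group means. The Sertoli cell sum was 3413 and 4126 CPM in knockdown libraries against 160 and 400.5 CPM in WT libraries, and the spermatid sum lay far lower in the knockdown.

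Of the 10 attachment genes, 3 fell in the knockdown, 2 rose and 5 did not pass the test (edgeR quasi-likelihood test, Benjamini-Hochberg adjustment over all 23594 genes tested, threshold 0.05). Terb1, Speedya and Lmnb2 fell, and Sun2 and Lmnb1 rose. The same 3 and 2 genes were the ones whose knockdown libraries lay wholly below or wholly above the WT libraries. Across all tested genes 60.9% passed, 33.5% as lower and 27.4% as higher. The number of attachment genes that passed was thus near the background and is no result about them as a group. Over all tested genes 43.7% lay wholly below and 39% wholly above, larger shares than 3 and 2 of the 10 attachment genes, a difference that was not tested. Their median log2 fold change was 0.07, against -0.12 for all genes. The description therefore rests on which genes of the machinery changed, by how much, and what happened to their partners.

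**Figure D2:**
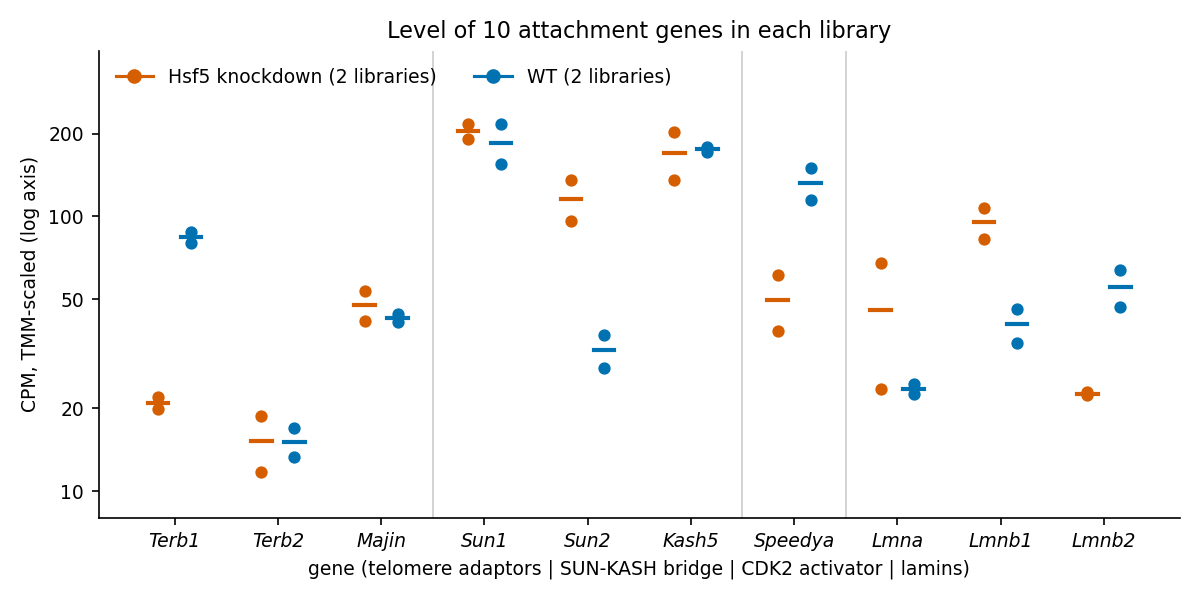
Level of the 10 genes in each library, in TMM-scaled CPM on a log axis, ordered by role. Points are libraries, Hsf5 knockdown in orange to the left of WT in blue, and bars are group means. The groups are apart for Terb1, Sun2, Speedya, Lmnb1 and Lmnb2 and overlap for the other 5 genes.

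Promoters of 4 of the 5 genes that passed are shown here because these genes moved in opposite directions. Each is the 250 bases before a RefSeq transcript start, 5′ to 3′ on the gene's strand, from build GRCm38.p6. The reads were counted on mm39, whose coordinates are different. Capitals mark matches to the motifs searched on both strands: the heat shock elements GAANNTTC and TTCNNGAA, the MYB core AACTG, the CCAAT box, and the GC box GGGCGG. Matches that overlap or touch form 1 run of capitals, as in the Speedya and Sun2 windows. For Lmnb2, which has more than 1 window in the table, the upstream one is shown.
Terb1, chr8:104509888-104510137, minus strand: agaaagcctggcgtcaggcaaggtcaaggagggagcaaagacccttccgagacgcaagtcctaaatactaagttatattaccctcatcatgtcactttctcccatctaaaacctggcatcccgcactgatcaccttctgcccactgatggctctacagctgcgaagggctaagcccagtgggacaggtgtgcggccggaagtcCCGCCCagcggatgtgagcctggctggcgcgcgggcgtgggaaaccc
Speedya (Spdya), chr17:71551811-71552060, plus strand: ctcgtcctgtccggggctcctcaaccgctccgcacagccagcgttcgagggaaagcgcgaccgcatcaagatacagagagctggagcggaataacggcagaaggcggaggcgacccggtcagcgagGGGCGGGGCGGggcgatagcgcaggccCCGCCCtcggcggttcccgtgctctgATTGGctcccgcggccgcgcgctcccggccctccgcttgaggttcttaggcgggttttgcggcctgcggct
Lmnb2, chr10:80918246-80918495, minus strand: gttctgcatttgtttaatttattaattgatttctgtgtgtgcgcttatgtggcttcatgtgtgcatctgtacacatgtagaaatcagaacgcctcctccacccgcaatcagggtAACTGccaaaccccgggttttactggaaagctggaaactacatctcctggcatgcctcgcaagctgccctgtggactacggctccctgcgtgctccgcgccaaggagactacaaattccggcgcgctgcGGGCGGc
Sun2, chr15:79742537-79742786, minus strand: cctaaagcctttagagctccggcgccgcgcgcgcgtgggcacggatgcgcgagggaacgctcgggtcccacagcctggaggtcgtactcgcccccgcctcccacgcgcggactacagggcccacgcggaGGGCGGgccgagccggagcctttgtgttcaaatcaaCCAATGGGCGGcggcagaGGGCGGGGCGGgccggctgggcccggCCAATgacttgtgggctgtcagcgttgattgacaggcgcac
None of the 4 windows held either heat shock element. The MYB core stood once in the Lmnb2 window. All 4 windows held the GC box, once in Terb1 and Lmnb2, 3 times in Speedya and 4 times in Sun2, and the CCAAT box stood once in Speedya and 2 times in Sun2. Among 32851 RefSeq promoter windows of the same length, the heat shock elements GAANNTTC and TTCNNGAA were found in 6.69% and 7.17%, the MYB core in 39.1%, the CCAAT box in 33.8% and the GC box in 32.7%. A match is a string of letters and not a measured binding site. The promoter table held 7 of the 10 genes, without Terb2, Majin and Lmnb1.

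Among the 3 telomere adaptors Terb1 alone passed the test. Terb1, whose product docks on the telomere protein TRF1 and carries TERB2 and MAJIN with it, had 22.0 and 19.8 CPM in the knockdown libraries, against 87.7 and 80.2 CPM in the WT libraries. Both knockdown libraries stood at about the same low level and both WT libraries at about the same high one. The log2 fold change was -2.0 with a standard error of 0.31 and a 95% interval from -2.69 to -1.32 (edgeR, adjusted p = 0.000563, n = 2 per group), a ratio of 0.249. Many genes moved further, since 46.5% of all tested genes had a larger log2 fold change in size. Terb1 passed as lower under all 13 alternatives tried, with log2 fold changes from -2.81 to -1.57.

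Terb2, the link between TERB1 and MAJIN, had 18.8 and 11.7 CPM in the knockdown libraries, against 17.0 and 13.3 CPM in WT libraries. The WT values lay inside the knockdown range, and the log2 fold change of 0.01 (SE 0.41, 95% interval -0.91 to 0.94) did not pass (edgeR, adjusted p = 0.984). Terb2 rested on 383 to 888 counts per library, the fewest of the 10 genes. Majin, the membrane anchor that also binds DNA, had 53.7 and 41.7 CPM in the knockdown libraries, against 44.2 and 41.4 CPM in WT libraries, with overlapping groups and a log2 fold change of 0.16 (SE 0.31, 95% interval -0.54 to 0.85; edgeR, adjusted p = 0.684). The Terb2 interval allows changes of up to nearly 2-fold in either direction, and the narrower Majin interval also spans 0, so the test does not show that Terb2 and Majin stayed the same, and the sign of both estimates was negative under axis-gene scaling, in which library sizes are set by 16 genes of the synaptonemal complex and cohesin instead of by TMM. Even so, the upper bound of the Terb1 interval lay below the lower bounds of Terb2 and Majin.

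Ratios between genes within a library do not depend on the scaling of the libraries. Per transcript length, Terb1 stood at 0.217 and 0.252 times Majin in the knockdown libraries, against 1.05 and 1.03 times Majin in the WT libraries. The corresponding ratio of Terb1 to Terb2 was 0.84 and 1.21 in knockdown libraries, against 3.70 and 4.32 in WT libraries. In WT libraries Terb1 RNA was thus about level with Majin and above Terb2, and in knockdown libraries it was about level with Terb2. The ratio of Terb2 to Majin overlapped, at 0.258 and 0.208 in knockdown libraries and 0.284 and 0.237 in WT libraries. Of 7 such ratios compared, the 4 without overlap between the groups reached an exact two-sided permutation p of 0.333 (0.583 after Benjamini-Hochberg adjustment), which is the smallest that 2 libraries against 2 allow.

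**Figure D3:**
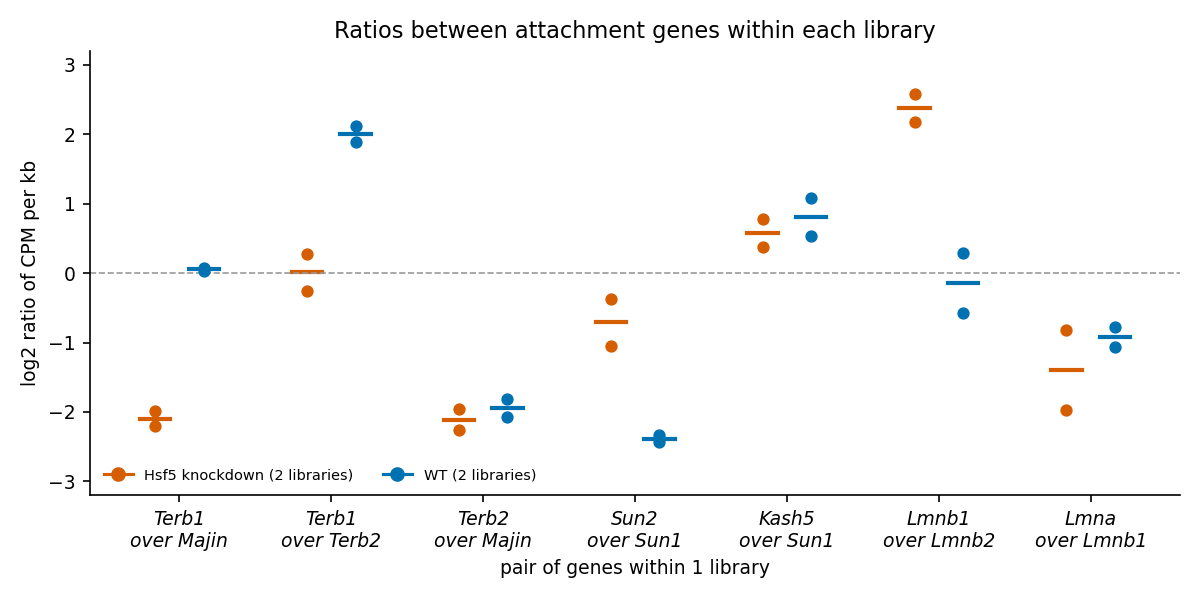
The log2 ratio of length-scaled CPM for 7 pairs of genes within each library, with Hsf5 knockdown in orange to the left of WT in blue and bars at group means. The log2 ratio of Terb1 to Majin averaged -2.10 in knockdown libraries and 0.05 in WT libraries, and that of Lmnb1 to Lmnb2 averaged 2.37 in knockdown libraries and -0.14 in WT libraries.

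The genes with the closest profile over the 4 libraries were looked for among 11698 genes with a mean of at least 5 CPM. Genes with a predicted or clone name (Gm number or Rik) were left out of the search. For Terb1 these were Zfp438, a zinc finger gene, and Mus81, a nuclease gene of crossover repair, whose log2 profiles differed from that of Terb1 by a root mean square of 0.01 and 0.03. Mus81 had 14.9 and 12.9 CPM in knockdown libraries, against 57.1 and 53.8 CPM in WT libraries. For Terb2 they were Zc3h15 and Sf3a3, a splicing factor gene, and for Majin Mindy3 and Gpbp1l1, all with overlapping groups and differences of 0.02 to 0.03. With 4 libraries in 2 groups many genes share such a profile.

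In the bridge, Sun2 rose while Sun1 and Kash5 did not pass. Sun2, whose product is also found at meiotic telomeres, had 96.5 and 135 CPM in the knockdown libraries, against 28.1 and 37.0 CPM in the WT libraries. Both knockdown libraries lay above both WT libraries. The log2 fold change was 1.83 with a standard error of 0.32 and a 95% interval from 1.11 to 2.55 (edgeR, adjusted p = 0.00114, n = 2 per group), or 3.56-fold. The rise kept its direction under all alternatives but did not pass under axis-gene scaling by the median of the gene ratios (1.09; edgeR, adjusted p = 0.133) or by the geometric mean (1.23, adjusted p = 0.0856).

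Sun1, the SUN protein needed for meiotic attachment in mice, had 216.2 and 191 CPM in the knockdown libraries, against 154 and 217 CPM in WT libraries. The knockdown values lay inside the WT range, and the log2 fold change of 0.13 (SE 0.30, 95% interval -0.54 to 0.81) did not pass (edgeR, adjusted p = 0.721). Kash5, which joins SUN1 to dynein, had 203 and 136 CPM in knockdown libraries, against 178 and 172 CPM in WT libraries, with a log2 fold change of -0.05 (SE 0.31, 95% interval -0.74 to 0.64; edgeR, adjusted p = 0.902). The signs of both turned with the scaling of the libraries. Per transcript length, Sun2 stood at 0.485 and 0.77 times Sun1 in the knockdown libraries, against 0.198 and 0.186 times Sun1 in the WT libraries. Sun1 thus remained above Sun2 in every library, with a smaller margin in the knockdown. The ratio of Kash5 to Sun1 was 1.72 and 1.30 in knockdown libraries and 2.11 and 1.45 in WT libraries, with overlap.

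Speedya, the activator of CDK2 at telomeres, had 61.2 and 38.4 CPM in the knockdown libraries, against 150 and 114 CPM in the WT libraries. Replicates differed in both groups, but the higher knockdown library was still below the lower WT library. The log2 fold change was -1.41 (SE 0.33, 95% interval -2.16 to -0.66; edgeR, adjusted p = 0.00532, n = 2 per group), a ratio of 0.377. It passed as lower under all 13 alternatives tried, with log2 fold changes from -2.28 to -0.98. In the GENCODE M21 annotation 402 of 2198 exonic bases of the gene lie opposite Trmt61b and 250 lie in the pseudogene Mettl4-ps1, and without a stated strand setting reads there are less certain. Trmt61b was counted at 3.60 and 4.36 CPM in knockdown libraries and 8.93 and 8.26 CPM in WT libraries, and Mettl4-ps1 at 1.02 and 0.80 CPM and at 2.06 and 1.04 CPM in those libraries, all far below Speedya. Sun1 and Sun2 also have antisense partners in that annotation, which are not in the count table under those names.

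The lamins split, and the B-type lamins moved in opposite directions. Lmnb1, the B-type lamin of most cells, had 107 and 82.9 CPM in the knockdown libraries, against 34.7 and 46.1 CPM in the WT libraries, with both knockdown libraries above both WT libraries. The log2 fold change was 1.24 (SE 0.31, 95% interval 0.54 to 1.94; edgeR, adjusted p = 0.00724, n = 2 per group), or 2.36-fold. The call was lost without WT replicate 1 (1.03; edgeR, adjusted p = 0.101) and under axis-gene scaling by the median (0.37, adjusted p = 0.584) or the geometric mean (0.54, adjusted p = 0.335).

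Lmnb2, whose transcripts in spermatogenesis also give the germ cell form lamin B3, had 22.4 and 22.9 CPM in the knockdown libraries, against 64.0 and 46.9 CPM in the WT libraries. The knockdown libraries were nearly equal and both below WT, with a log2 fold change of -1.29 (SE 0.33, 95% interval -2.03 to -0.55; edgeR, adjusted p = 0.00753, n = 2 per group) and a ratio of 0.408. Without WT replicate 1, the higher of the WT libraries, the fall did not pass (-1.07; edgeR, adjusted p = 0.0649). Per transcript length, Lmnb1 stood at 5.97 and 4.49 times Lmnb2 in knockdown libraries, against 0.674 and 1.22 times Lmnb2 in WT libraries. The counts are per gene, so lamin B2 and lamin B3 transcripts cannot be told apart.

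Lmna encodes lamins A and C of somatic cells and the short meiotic form lamin C2, which starts from a separate promoter. It had 67.9 and 23.4 CPM in the knockdown libraries, against 22.5 and 24.5 CPM in the WT libraries. Knockdown replicate 1 alone was high, and replicate 2 lay between the WT libraries. The log2 fold change of 0.96 (SE 0.47, 95% interval -0.10 to 2.02) did not pass (edgeR, adjusted p = 0.105). Without knockdown replicate 2 it passed as higher (1.53; edgeR, adjusted p = 0.00656), and without knockdown replicate 1 it was 0.07 and did not pass. It also passed without the low-count filter (1.00; edgeR, adjusted p = 0.0352) and with library totals as the only scaling (1.37, adjusted p = 0.03), and was -0.07 under axis-gene scaling by the median. Markers of peritubular myoid cells and macrophages were also higher in knockdown replicate 1. The sum of 5 myoid markers was 96.3 and 23.3 CPM in the knockdown libraries and 3.78 and 6.32 CPM in WT libraries, with 3 of the 4 tested higher in the knockdown. That of 6 macrophage markers was 124 and 42.9 CPM in the knockdown libraries and 9.35 and 10.4 CPM in WT libraries, with 5 higher. The pachytene, leptotene or zygotene, spermatogonia and spermatid sums given above were also higher in knockdown replicate 1. Those of Sertoli, Leydig and endothelial markers were higher in knockdown replicate 2. The part of any of these cells in the Lmna values was not tested.

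**Figure D4:**
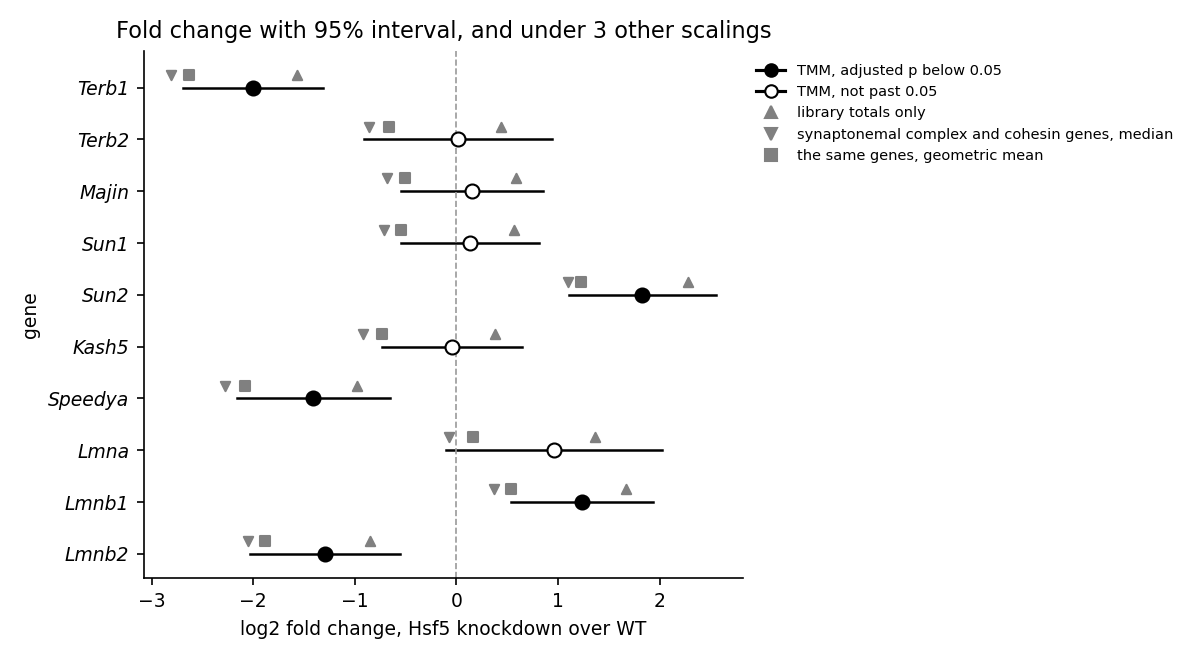
Log2 fold change of each gene, Hsf5 knockdown over WT, with its 95% interval as a line; filled circles passed an adjusted p of 0.05. Grey marks are the estimates with 3 other scalings of the libraries, under which Terb1, Speedya and Lmnb2 stayed below 0 and Sun2 and Lmnb1 above it, while Terb2, Majin, Sun1, Kash5 and Lmna crossed it.

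The scaling of the libraries matters for these estimates because so many genes changed. Relative to TMM, the all-gene median shifted by 0.44 on the log2 scale with library totals only, by -0.80 with axis-gene scaling by the median, and by -0.62 with axis-gene scaling by the geometric mean. None of the 10 genes is among the 16 used for scaling. Those 16 did not all keep their level with TMM. Sycp1 rose (log2 fold change 1.27; edgeR, adjusted p = 0.00708), while Sycp3 (0.87) and Sycp2 (-0.51) did not pass and had opposite signs. These values rest on TMM itself, so neither axis-gene scaling nor TMM is shown here to be a neutral reference. Of all calls 45.01% were higher in the knockdown with TMM, 54.9% with library totals, and 22.3% and 25.5% with axis-gene scaling by the median and by the geometric mean. Relative to the median of all genes, the log2 fold change was -1.88 for Terb1, -1.29 for Speedya, -1.17 for Lmnb2, 1.95 for Sun2 and 1.36 for Lmnb1.

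Levels per transcript length, in CPM per kb, rank the genes within each group. In knockdown libraries Kash5 stood highest at a mean of 74.9, followed by Sun1 at 49.2, Lmnb1 at 33.5, Majin at 30.5, Sun2 at 30.4, Speedya at 26.3, Lmna at 14.5, Terb2 at 7.22, Terb1 at 7.09 and Lmnb2 at 6.41. From Lmnb1 down to Terb1 the library values of each gene overlapped with those of the next in this order. In WT libraries the order was Kash5 at 77.4, Speedya at 69.9, Sun1 at 44.9, Terb1 at 28.5, Majin at 27.4, Lmnb2 at 15.7, Lmnb1 at 14.2, Sun2 at 8.56, Lmna at 7.44 and Terb2 at 7.16. There Kash5 overlapped with Speedya, Terb1 with Majin, Lmnb2 with Lmnb1, Sun2 with Lmna, and Lmna with Terb2. Terb1 thus stood with Majin in WT libraries and with Terb2 near the bottom of the order in knockdown libraries.

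The partner counts below are to be read beside all tested genes, of which 27.4% were higher, 33.5% lower and 60.9% passed in either direction. No set test was run, so the counts describe the lists and are no result about them. The partners on the telomere side were mixed. Of the 7 genes of shelterin, 3 rose, 1 fell and 3 did not pass, with a median log2 fold change of -0.07. Pot1a, which binds the single-stranded telomere end, had 23.6 and 20.7 CPM in knockdown libraries, against 1.76 and 3.68 CPM in WT libraries, a log2 fold change of 3.03 (SE 0.50; edgeR, adjusted p = 0.000811). Its paralog Pot1b and the Rap1 gene Terf2ip also rose, with log2 fold changes of 1.16 (SE 0.39) for Pot1b and 1.31 (SE 0.37) for Terf2ip, and neither passed under axis-gene scaling. Pot1b also failed to pass without any 1 of the 4 libraries. The 1 gene that fell was Terf1, which encodes TRF1, the shelterin protein that TERB1 binds, and it is singled out after its values were seen. It had 34.4 and 23.8 CPM in knockdown libraries, against 63.3 and 46.5 CPM in WT libraries, a log2 fold change of -0.92 (SE 0.34; edgeR, adjusted p = 0.0424). That call was lost with library totals only (-0.49, adjusted p = 0.218), with no filter on low counts (-0.87, adjusted p = 0.0601), without knockdown replicate 2 (-0.67, adjusted p = 0.177) without WT replicate 1 (-0.69, adjusted p = 0.253) and with a minimum change of 2-fold.

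All 8 other SUN and KASH genes passed, where 60.9% of all tested genes did. Of these 8, 5 were higher and 3 lower, with a median log2 fold change of 1.51. The 3 that fell, Sun3, Spag4 and Sun5, are the SUN genes of spermatids. Spag4 had 2.98 and 2.08 CPM in knockdown libraries, against 89.9 and 56.4 CPM in WT libraries, and Sun3 had 2.12 and 1.86 CPM in knockdown libraries, against 66.0 and 33.6 CPM in WT libraries. Their log2 fold changes were -4.85 (SE 0.43) and -4.64 (SE 0.47). Sun5 had no count and 8 counts in the knockdown libraries, against 36.7 and 21.7 CPM in WT libraries. The spermatid markers given above fell with them. The 5 that rose were the nesprin genes Syne1 to Syne4 and Irag2, with log2 fold changes from 1.31 to 2.48. Irag2 passed narrowly (edgeR, adjusted p = 0.0494), with 10 counts in each WT library. None of these 5 rises passed under axis-gene scaling by the median. Syne1, Syne2 and Syne3 were higher in knockdown replicate 2 than in replicate 1, as were the Sertoli and Leydig cell sums given above. Syne4 and Irag2 went the other way and were higher in knockdown replicate 1. The part of Sertoli and Leydig cells in these values was not tested.

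At the inner membrane, 5 of 13 genes of lamin partners and membrane proteins rose, 1 fell and 7 did not pass, with a median log2 fold change of 0.30. Tmem43, Emd and Zmpste24 had the smallest p among them. Emd, the emerin gene, had 18.2 and 15.9 CPM in knockdown libraries, against 5.18 and 4.17 CPM in WT libraries, a log2 fold change of 1.87 (SE 0.42). Tmem43 (also called LUMA) and Zmpste24, the protease that matures prelamin A, rose too, with log2 fold changes of 2.04 (SE 0.38) for Tmem43 and 1.17 (SE 0.35) for Zmpste24. None of these 3 calls held with either axis-gene scaling, and Zmpste24 also did not pass without WT replicate 1, WT replicate 2 or knockdown replicate 2.

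On the cytoplasmic side, 10 of 26 genes of dynein and dynactin fell, 6 rose and 10 did not pass, with a median log2 fold change of -0.64. Dynlrb2, a light chain gene enriched in testis, had 12.4 and 6.71 CPM in knockdown libraries, against 96.0 and 61.2 CPM in WT libraries, a log2 fold change of -3.04 (SE 0.42; edgeR, adjusted p = 0.000341). Dynlrb1, its paralog of most cells, had 48.6 and 33.9 CPM in knockdown libraries, against 5.42 and 6.49 CPM in WT libraries, a log2 fold change of 2.79 (SE 0.39; edgeR, adjusted p = 0.000359). Dynlt1a, a light chain gene with near-identical copies and so less certain counts, had a log2 fold change of -2.31 (SE 0.36).

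Among CDK2 and its cyclins, 2 fell, 2 rose and 1 did not pass. Cdk2, the kinase that Speedy A activates, had 130 and 102 CPM in knockdown libraries, against 219 and 201 CPM in WT libraries, a log2 fold change of -0.86 (SE 0.29; edgeR, adjusted p = 0.0275). That call was lost with library totals only (-0.43, adjusted p = 0.178), without knockdown replicate 2 (-0.69, adjusted p = 0.0665), without WT replicate 1 (-0.81, adjusted p = 0.186) without WT replicate 2 (-0.90, adjusted p = 0.136) and with a minimum change of 2-fold. The germ cell cyclin gene Ccna1, which is also 1 of the pachytene markers, fell, at 2.81 and 3.44 CPM in knockdown libraries against 242 and 186 CPM in WT libraries. Ccna2, the cyclin A of dividing cells, rose, at 42.3 and 33.5 CPM in knockdown libraries against 6.37 and 3.33 CPM in WT libraries. Ccne1 rose by 1.08 (SE 0.42) on the log2 scale and lost its call under 7 of 13 alternatives, and Ccne2 had a log2 fold change of 0.08 (SE 0.38) that did not pass.

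**Figure D5:**
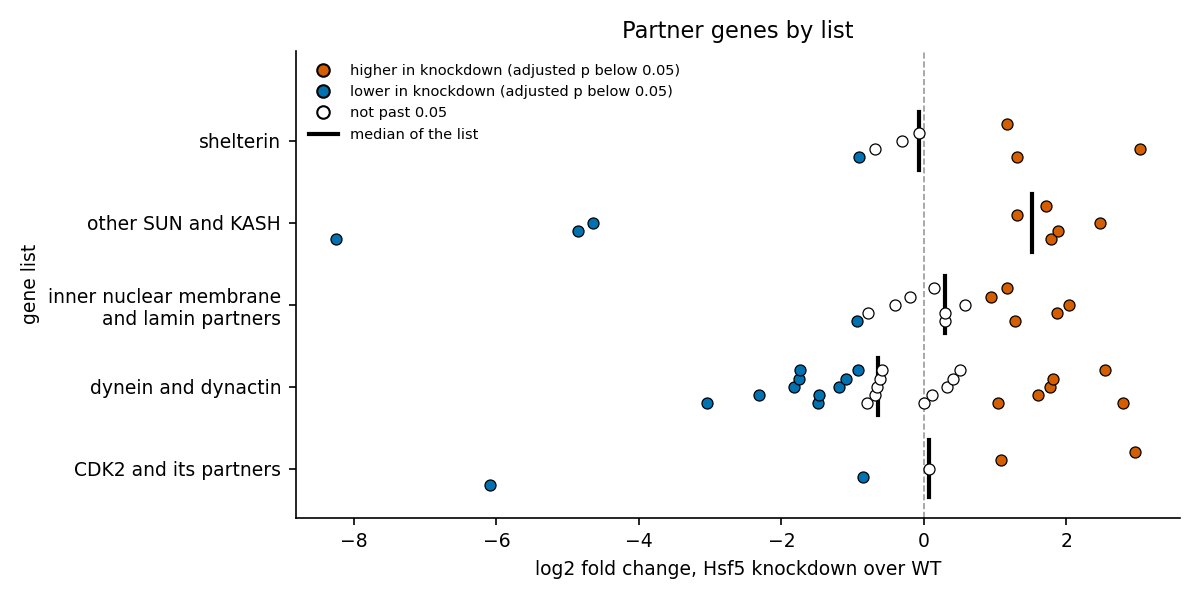
Log2 fold change, Hsf5 knockdown over WT, of each of 59 partner genes by list; orange genes were higher and blue genes lower at an adjusted p of 0.05, white genes did not pass, and bars are list medians. Of the 59 genes 21 were higher, 17 lower and 21 not past the test, and the list medians lay between -0.64 and 1.51. Over all tested genes 27.4% were higher and 33.5% lower.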

How the data were processed

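Raw read counts per gene were deposited by the authors as 1 table with 1 column per library. Per the submitters' processing notes, the tools listed are HISAT2 2.2.1, Trim Galore 0.6.10, featureCounts 1.5.3 and also DESeq2 1.46.0, with build mm39. No source used here states the annotation, whether counting used strand, or how multi-mapping reads were handled. Columns were matched to labels by name.

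The counts went into edgeR 4.0.16 (R 4.3.3) with filterByExpr, TMM and the quasi-likelihood F test without covariates; 23594 of the 36809 genes with a count were tested, among them all 10 described. A standard error is the size of the log2 fold change over the square root of F. The biological coefficient of variation was 0.356. Lengths are those of the longest protein-coding GENCODE M21 transcript. Each of the 10 genes had 383 or more counts per library, so spread between libraries sets the precision more than counting error.

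The genes and lists were chosen with earlier results of these data known. All 10 genes are named. Of a partner list, up to 3 genes with the smallest p that passed are named, or the whole list if it has 5 or fewer. Terf1, Syne1 to Syne4, Irag2, and the dynein and dynactin genes added under Other observations were named outside this rule. Alternatives were DESeq2 size factors, library totals, axis-gene scaling, unfiltered genes, a mean of 1 CPM as the filter, DESeq2 1.42.0 (Wald), a replicate block, omission of each library, and a 2-fold minimum.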

Additional observations from a re-analysis of the deposited data

How the results depend on the processing

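The results were recomputed under 13 other settings. Axis-gene scaling was run first by the geometric mean and then by the median of the ratios. The planned description did not say which, the choice of the median as the one counted as planned was made after values were seen, and both gave the same number of calls among the 10 attachment genes. By the median, 2514 genes were higher over all, 0 of the 10 attachment genes (edgeR; 0 also at an unadjusted p under 0.05, and 2 with the DESeq2 Wald test on its own size factors) and 3 of the partners. By the geometric mean these numbers were 2952, 0 (1 at an unadjusted p under 0.05) and 5. With library totals only, 9 partners were lower. Leaving out 1 library at a time, 1 to 3 attachment genes were higher, 13 to 14 partners were higher and 10 to 18 lower, with the lowest of each without WT replicate 1. The 3 falls among the attachment genes passed in every setting but 1, Lmnb2 without WT replicate 1, and none of the 5 called genes changed sign. Same-numbered libraries deviated together across all tested genes (r = 0.32), and more so across genes with a mean of at least 5 CPM (r = 0.48). With 2 pairs and no shared origin in the labels, the numbers are still not taken to pair the samples. With the replicate number as a block 2 attachment genes were higher and 3 lower, and 21 partners higher and 23 lower. Over all, 7016 genes were higher and 8351 lower with this block. With 2 libraries per group, the depth is not the limit and the spread between libraries is.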

Other observations

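Several related pairs of genes moved in opposite directions in the knockdown, each past the test with TMM. Under axis-gene scaling by the median, the rises of Lmnb1 and Dync1li1 did not pass. The pairs were picked after their values were seen, so they are a description with no test. Besides Lmnb1 and Lmnb2, Dynlrb1 and Dynlrb2, and Ccna2 and Ccna1, the light intermediate chain genes of dynein did so. Dync1li1 had 36.8 and 35.04 CPM in knockdown libraries, against 15.96 and 18.8 CPM in WT libraries, while Dync1li2 had 166 and 172 CPM in knockdown libraries, against 346 and 372 CPM in WT libraries. In dynactin, Dctn2 fell (log2 fold change -1.82, SE 0.31) and so did Actr1a (-1.46, SE 0.31), while Dctn1 had a log2 fold change of 0.00 (SE 0.28) that did not pass (edgeR, adjusted p = 0.993).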
